A study of Mus musculus with 9 samples.

Results

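The genes described here are 10 genes of DNA replication licensing and of the CRL4-Cdt2 ubiquitin ligase that restrains it. They are the helicase subunits Mcm2, Mcm3, Mcm4, Mcm5, Mcm6 and Mcm7, the helicase loaders Cdc6 and Cdt1, the sliding clamp Pcna, and Dtl. Dtl encodes Cdt2, the substrate receptor of that ligase. Every non-control probe whose array accession maps to one of these symbols was taken, whatever its signal, which gave 12 of the 41174 probes on the array for 10 of its 31758 genes. All 10 genes had a probe that stood clear of background on 4 or more of the 9 arrays, and all were therefore among the 27778 genes tested. The array measured heart RNA of male mice labelled C57BL/6, 3 to 4 months old, given no treatment, weaned at 3 weeks and kept on NIH31 diet. The RORasg/sg group held 4 mice homozygous for the staggerer mutation, an inherited deletion within Rora, which encodes the nuclear receptor RORalpha, and the deletion is therefore present in every cell type of the heart and from before birth. The WT group held 5 mice, and each heart gave 1 single-colour Agilent array. The study addressed RORalpha in cardiac hypertrophy, both during development and under angiotensin II, and the arrays compare untreated hearts.

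Before S phase the origin recognition complex marks replication origins, and Cdc6 and Cdt1 load the ring of Mcm2 to Mcm7 onto them, which licenses each origin for a single round of firing. Once replication starts, PCNA encircles the DNA behind the fork, and Cdt1 bound to it is recognised by Cdt2 and ubiquitinated by CRL4, so that no origin is licensed again. Most of these genes are classical E2F targets that rise in cells about to divide, and in the adult heart, where most cardiomyocytes have left the cell cycle, the dividing cells are mainly of other types.

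Because the members include classical E2F targets, the 250 bases before each annotated start were searched on both strands for 4 E2F-type motifs of 8 letters, TTTGGCGC, TTTCCCGC, TTTCGCGC and TTTGCCGC. Promoter sequences were from RefSeq (GRCm38.p6), whose table held an entry for 9 of the 10 genes, all but Mcm4. At least 1 motif was found before Mcm5, Mcm6, Mcm7, Cdc6 and Dtl, 5 of those 9 genes, while 611 of all 32851 promoters in the table (1.86%) held one. The members are counted per gene, by a match before any of its starts, and the 611 per promoter entry. No match was found in the windows of Mcm2, Mcm3, Cdt1 and Pcna. A match describes letters and is no evidence of binding. The windows of Dtl (chr1:191575545-191575794, minus strand), Mcm6 (chr1:128359706-128359955, minus strand) and Mcm7 (chr5:138171884-138172133, minus strand) are printed because Dtl had the largest difference between the groups, Mcm7 the widest spread among hearts, and Mcm6 the most matches. They run 5′ to 3′ on the gene's strand and end at the base before the start, with motif matches in capitals.
Dtl: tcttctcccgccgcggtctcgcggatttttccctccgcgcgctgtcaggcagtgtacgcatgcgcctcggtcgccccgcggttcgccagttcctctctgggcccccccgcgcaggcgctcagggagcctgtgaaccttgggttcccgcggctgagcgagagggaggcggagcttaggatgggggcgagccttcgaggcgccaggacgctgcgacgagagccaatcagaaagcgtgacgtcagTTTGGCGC
Mcm6: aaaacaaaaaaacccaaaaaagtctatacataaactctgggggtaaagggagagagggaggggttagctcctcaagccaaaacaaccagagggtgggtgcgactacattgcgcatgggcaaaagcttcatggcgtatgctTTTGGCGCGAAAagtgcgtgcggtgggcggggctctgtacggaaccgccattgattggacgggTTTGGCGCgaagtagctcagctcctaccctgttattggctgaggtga
Mcm7: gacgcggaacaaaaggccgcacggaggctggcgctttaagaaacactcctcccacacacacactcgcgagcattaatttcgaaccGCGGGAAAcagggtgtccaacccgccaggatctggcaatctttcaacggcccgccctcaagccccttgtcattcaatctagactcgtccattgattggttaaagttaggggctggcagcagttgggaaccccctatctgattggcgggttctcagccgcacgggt
In Dtl the TTTGGCGC match covers the last 8 bases before the start. Mcm6 holds TTTGGCGC from 110 to 103 bases before the start, a TTTCGCGC on the other strand from 106 to 99 that overlaps it, and a further TTTGGCGC from 47 to 40. Mcm7 holds TTTCCCGC on the other strand, from 165 to 158 bases before the first of its 2 annotated starts, and none before the other. In Cdc6, on the other strand as well, TTTCCCGC lies from 138 to 131 bases before the start. Mcm5 has an overlapping pair between 153 and 142 bases before the start. Singly, the motifs occur in 0.417% (TTTGGCGC), 0.895% (TTTCCCGC), 0.256% (TTTCGCGC) and 0.338% (TTTGCCGC) of the promoters.

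Values are given as relative signal, the background-subtracted signal of a probe divided by the 75th percentile of its array, so 1 marks the level of a probe brighter than most. Because probes differ in how well they bind, levels are compared between hearts and not between genes, and differences are log2 RORasg/sg minus WT. The arrays were unequal. Their 75th percentiles were 773, 292, 391 and 264 for RORasg/sg hearts 1 to 4, against 684, 643, 631, 436 and 547 for WT hearts 1 to 5, and 80.7% to 87.7% of probes were well above background. Across genes, RORasg/sg 1 correlated with the brighter WT arrays at a median of 0.962, while RORasg/sg 2 to 4 did so at 0.861, 0.81 and 0.757 and WT 4 at 0.895. RORasg/sg 2, 3 and 4 and WT 4 are the dimmer arrays (75th percentile under 500), so brightness and genotype cannot be fully told apart, with 1 RORasg/sg heart among the 5 brighter arrays and 1 WT heart among the 4 dimmer ones. Slide 1 held RORasg/sg 1 and 2 with WT 1 and 2, slide 2 held RORasg/sg 3 and 4 with WT 3 and 4, and slide 3 held WT 5. The median gene differed by 0.41 on the log2 scale after scaling, so members are also read against that shift. A Rora probe, A_51_P477779, read 1.06, 0.153, 0.496 and 0.251 in RORasg/sg hearts, against 7.33, 9.79, 7.38, 2.85 and 8.34 in WT hearts. Another, A_52_P652442, spanned 0.0465 to 1.19 in RORasg/sg hearts, against 2.95 to 10.6 in WT hearts (difference -5.34, SE 0.824). The third, A_52_P652950, spanned 0.00893 to 0.11 in RORasg/sg hearts, against 0.0296 to 0.102 in WT hearts, and so overlapped (difference -1.08, SE 0.775). Which of them lie within the deletion is not known. In RNA from whole hearts, fewer cells of a type and less RNA per cell cannot be told apart.

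Dtl had the largest difference of the 10 genes. Its probe A_52_P14686 gave a relative signal of 0.61, 0.827, 1.2 and 0.623 in RORasg/sg hearts 1 to 4, against 0.144, 0.178, 0.134, 0.108 and 0.18 in WT hearts 1 to 5. Every RORasg/sg heart was above every WT heart, and the lowest RORasg/sg value was over 3 times the highest WT value. The means were 0.815 ± 0.275 in RORasg/sg hearts (SD, n = 4) and 0.149 ± 0.0305 in WT hearts (SD, n = 5). The log2 difference was 2.42 (SE 0.405), a 5.36-fold higher signal in RORasg/sg hearts, which ranked 5th by p among all genes tested (limma unadjusted p = 6.28e-05). It did not pass the threshold over all genes (limma adjusted p = 0.2925). After subtracting each array's median gene, Dtl remained 2.45, 1.95, 2.38 and 1.34 log2 units above the WT mean in RORasg/sg hearts 1 to 4, and lay between -0.66 and 0.37 in the WT hearts. The difference was 2.15 within slide 1 and 2.85 within slide 2. A second Dtl probe, A_51_P461228, was not well above background on any array and can neither repeat nor contradict the first. The Dtl result therefore rests on 1 probe.

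**Figure D1:**
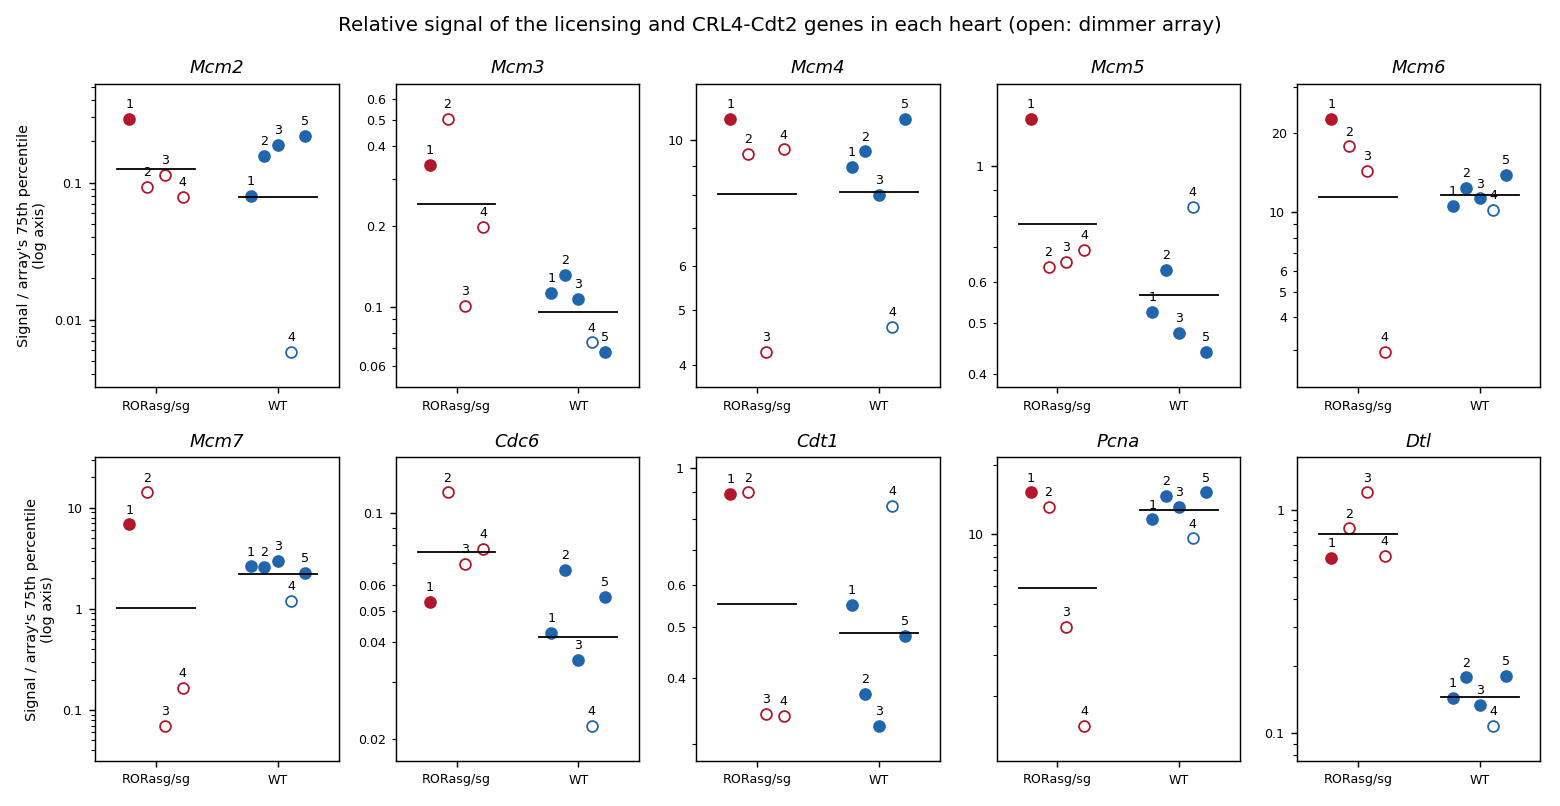
Relative signal (signal divided by the array's 75th percentile, log axis) of the probe representing each of the 10 genes. RORasg/sg hearts are in red, left, and WT hearts in blue, right, numbered by replicate, with open circles for the 4 dimmer arrays and a bar at the mean of the log2 values. The groups do not overlap for Dtl, and in Mcm7 and Pcna RORasg/sg 3 and 4 lie below all WT hearts while RORasg/sg 1 and 2 do not.

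Of the 10 genes, 6 had a higher and 4 a lower mean in RORasg/sg hearts, and none passed an adjusted p of 0.05 (limma, smallest 0.2925 and largest 0.9864). Over all genes that threshold was passed by 0% on the higher side and 0.0036% (1 gene) on the lower side. An unadjusted limma p under 0.05 was reached by 2 members on the higher side, Dtl and Mcm3, and by 0 on the lower, against 4.94% of all genes higher, 6.62% lower and 11.6% in either direction. Groups without overlap occurred for 1 member, Dtl, above, and for 0 below, while all RORasg/sg hearts lay above all WT hearts for 1.12% of all genes and below for 1.71%. The mean was higher in RORasg/sg hearts for 66.6% of all genes, and 5 of the 10 members differed by more than the median gene, as 50% of genes do. The members' median difference was 0.31, against 0.41 over all genes.

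Within the helicase ring the 6 subunits did not move together, with 3 higher and 3 lower means and a median difference of 0.22. Mcm3, which joins Mcm5 in the ring, read 0.34, 0.505, 0.101 and 0.199 in RORasg/sg hearts, against 0.113, 0.132, 0.107, 0.0736 and 0.0677 in WT hearts. RORasg/sg 1, 2 and 4 exceeded all WT hearts and RORasg/sg 3 lay among them. The difference of 1.35 (SE 0.510, limma adjusted p = 0.414) was above the median gene by 0.94, and it was 1.76 within slide 1 and 0.68 within slide 2. Its unadjusted limma p was 0.0216, and it was 0.0744 without RORasg/sg 2, 0.054 without WT 5, 0.0723 with the replicate block, 0.221 without scaling (difference 0.77) and 0.267 with array weights (0.52). Mcm5, its neighbour, read 1.23, 0.64, 0.655 and 0.69 in RORasg/sg hearts, against 0.526, 0.631, 0.479, 0.835 and 0.44 in WT hearts. Here RORasg/sg 1 stood above the rest and WT 4 above the other RORasg/sg hearts, and the difference of 0.45 (SE 0.423, adjusted p = 0.528) lay within 0.04 of the shift of the median gene and was -0.13 without scaling.

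Mcm2, which closes the ring against Mcm5, read 0.292, 0.0925, 0.113 and 0.0787 in RORasg/sg hearts, against 0.0799, 0.157, 0.187, 0.00582 and 0.22 in WT hearts. Its value in WT 4 was not well above background, and that heart decides the direction: the difference was 0.66 (SE 0.955, adjusted p = 0.669) with it and -0.28 (SE 0.542) without it. Mcm4, part of the catalytic Mcm4-Mcm6-Mcm7 core, read 10.9, 9.44, 4.22 and 9.62 in RORasg/sg hearts, against 8.95, 9.54, 8, 4.67 and 10.9 in WT hearts. RORasg/sg 3 and WT 4 were low and all others similar, with a difference of -0.01 (SE 0.422, adjusted p = 0.986). Mcm6 read 22.7, 17.8, 14.4 and 2.95 in RORasg/sg hearts, against 10.6, 12.4, 11.3, 10.2 and 13.9 in WT hearts. RORasg/sg 1, 2 and 3 were above every WT heart and RORasg/sg 4 was far below them all, so a difference of -0.02 (SE 0.542, adjusted p = 0.984) covers opposite deviations; without RORasg/sg 4 it was 0.63 (SE 0.343).

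Mcm7 was the most uneven member. Its relative signal was 6.84, 14.2, 0.0696 and 0.165 in RORasg/sg hearts, against 2.63, 2.58, 2.96, 1.2 and 2.28 in WT hearts. RORasg/sg 1 and 2 lay above all WT hearts and RORasg/sg 3 and 4 below all of them, a 204-fold range within 1 genotype, against 2.47-fold in WT hearts. In processed signal the RORasg/sg hearts read 5289, 4150, 27.18 and 43.69, and the WT hearts 1796, 1662, 1867, 522.6 and 1244, with the probe well above background on all 9 arrays. The log2 SD in RORasg/sg hearts, 3.82, exceeded that of 99.8% of all genes. The difference was 1.92 within slide 1 (limma unadjusted p = 0.0293) and -4.13 within slide 2 (limma unadjusted p = 0.00288), and over all arrays it was -1.12 (SE 1.35, limma adjusted p = 0.611). It was 0.18 without RORasg/sg 3.

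Pcna followed Mcm7 in which hearts were low. It read 15.2, 13.1, 3.98 and 1.48 in RORasg/sg hearts, against 11.6, 14.7, 13.2, 9.61 and 15.2 in WT hearts. RORasg/sg 1 was level with the highest WT heart, RORasg/sg 2 lay within the WT range and RORasg/sg 3 and 4 below it. This probe is printed 10 times on each array, and its spots had a coefficient of variation of 2.39% to 6.77% within an array (8 spots used in RORasg/sg 4), against a 10.3-fold range between RORasg/sg hearts. The log2 difference was -1.12 (SE 0.624, limma adjusted p = 0.418), 0.11 within slide 1 and -2.22 within slide 2. Across the 9 hearts the Pearson correlation of Pcna with Mcm7 was 0.835 and with Mcm6 0.794, given as a description since the hearts share array brightness.

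The loaders overlapped between the genotypes. Cdt1, the target that CRL4-Cdt2 destroys, read 0.891, 0.898, 0.342 and 0.339 in RORasg/sg hearts, against 0.55, 0.373, 0.325, 0.847 and 0.481 in WT hearts. RORasg/sg 1 and 2 were at the top and RORasg/sg 3 and 4 near the bottom of the 9 hearts, with a difference of 0.18 (SE 0.499, adjusted p = 0.825), 0.98 within slide 1 and -0.62 within slide 2, and -0.39 without scaling. Cdc6, the ATPase that recruits the Cdt1-MCM complex to the origin, read 0.0532, 0.116, 0.0695 and 0.0777 on probe A_52_P371108 in RORasg/sg hearts, against 0.0427, 0.0666, 0.0351, 0.022 and 0.0552 in WT hearts. RORasg/sg 2, 3 and 4 exceeded all WT hearts, the value in WT 4 was not well above background, and the difference was 0.88 (SE 0.471, adjusted p = 0.418). Before scaling the probe was dim, with a processed signal from 9.587 in WT 4 to 42.84 in WT 2, the highest of the 9 hearts. The difference was 0.30 without scaling and 0.24 with normexp background correction and quantile normalization, and over 24 alternatives it lay between 0.134 and 1.96. The second Cdc6 probe, A_52_P219473, was well above background only in RORasg/sg 1 and 3 and was not tested. Across the hearts Cdc6 correlated with Dtl at 0.758, and Pcna with Dtl at -0.476. After subtracting each array's median gene these values were 0.616 and -0.292, and they too are given as a description.

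**Figure D2:**
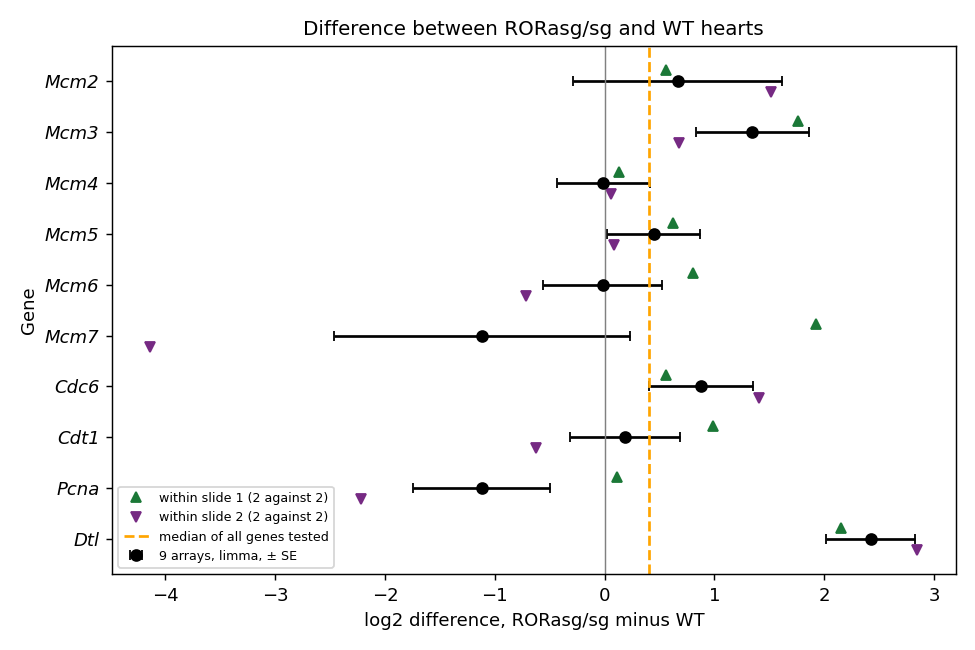
Log2 difference of each gene, RORasg/sg minus WT. Black points are the limma estimate over 9 arrays with its standard error, upward triangles the difference within slide 1, downward triangles that within slide 2, and the dashed line the median of all genes (0.41). Dtl lies beyond 2 in each, while Mcm7 runs from 1.92 to -4.13 between the slides.

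The members were also compared within each slide. Within slide 1 all 10 members were higher in RORasg/sg hearts, where 53.6% of all genes were, and their median difference was 0.72 against 0.06 for all genes. Unadjusted limma p-values under 0.05 were reached by 3 members on the higher side (Mcm3, Mcm7 and Dtl) and by 0 on the lower, against 0.317% and 1.14% of all genes. Within slide 2, 6 members were higher and 4 lower (Mcm6, Mcm7, Cdt1 and Pcna), where 67.6% of all genes were higher, and the median was 0.07 against 0.68 for all genes. There 1 member, Dtl, was higher and 2, Mcm7 and Pcna, lower at an unadjusted p under 0.05, against 12.5% and 7.4% of all genes. Each slide compares 2 RORasg/sg hearts with 2 WT hearts, no member passed the adjusted threshold in either, and the difference between slides was not tested. Read per heart, the members deviated from the WT mean by a median of 1.04, 0.75, 0.148 and 0.124 in the RORasg/sg hearts in order, and 10, 6, 2 and 3 of them exceeded the median gene of the array. In WT hearts 1 to 5 the medians were 0.0334, 0.225, -0.0306, -0.421 and 0.256, and the counts 4, 9, 7, 2 and 8.

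**Figure D3:**
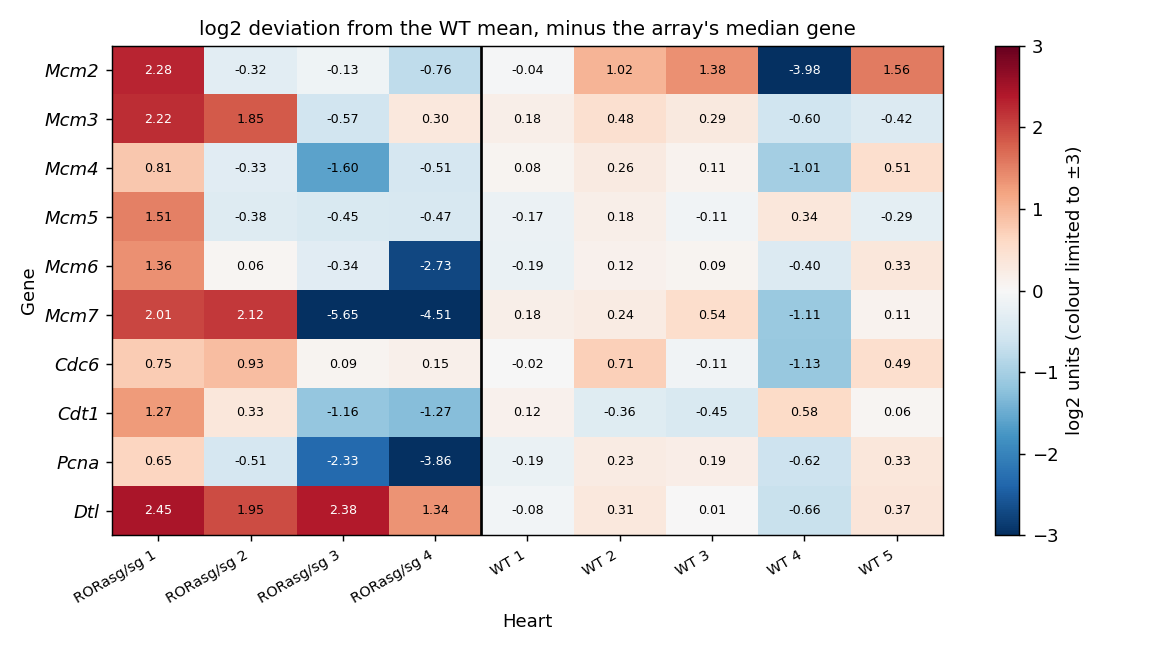
Deviation of each gene in each heart from the WT mean, in log2 units after subtracting the array's median gene, RORasg/sg hearts to the left of the line and WT hearts to the right. Dtl is positive in all 4 RORasg/sg hearts, every gene is positive in RORasg/sg 1, and Mcm7 and Pcna are strongly negative in RORasg/sg 3 and 4.

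Markers of heart cell types also varied among the RORasg/sg hearts, though not all in the same hearts. For 8 cardiomyocyte markers, among them Myh6, Tnnt2 and Ryr2, relative signals summed to 785, 683, 257 and 251 over RORasg/sg hearts 1 to 4, against 677 to 809 in WT hearts, with all 8 lower on average in RORasg/sg. The hearts low in these markers, RORasg/sg 3 and 4, are those lowest in Mcm7 and Pcna. The 5 lymphocyte markers summed to 0.933, 8.12, 11.1 and 7.2 over the same RORasg/sg hearts, against 1.04 to 1.93 in WT hearts, with all 5 higher on average. For RORasg/sg and WT hearts in turn, the sums spanned 44.3 to 91.5 and 42.6 to 51.8 for 6 fibroblast markers (3 higher, 3 lower), 24.8 to 63.3 and 18.6 to 34.6 for 5 endothelial markers (2 higher, 3 lower), and 9.18 to 18.3 and 7.35 to 15.3 for 6 macrophage markers (1 higher, 5 lower). They spanned 16 to 60.7 and 47.3 to 86.2 for 4 smooth muscle and pericyte markers (1 higher, 3 lower), 0.433 to 4.79 and 3.34 to 4.97 for 4 erythroid markers (3 higher, 1 lower), and 0.306 to 1.23 and 0.296 to 1.13 for 3 adipocyte markers (2 higher, 1 lower). The lower erythroid marker was Alas2 (difference -4.42, SE 1.11). Its mean signal was the largest of the 4 in WT hearts, so it weighs most in their sum. No marker was at background on every array, and the cardiomyocyte markers, which define the labelled tissue, were read in all 9 hearts. The part of cell makeup in the licensing genes' values was not tested.

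The SD was larger in RORasg/sg than in WT hearts for 8 of 10 members, against 86.1% of all genes, and the median SD was 0.826 in RORasg/sg and 0.444 in WT hearts for members, against 1.07 and 0.511 for all genes. Leaving out RORasg/sg 1, the brighter RORasg/sg array, brought 28.6% of all genes past the adjusted threshold on the higher side and 8.89% on the lower, and with them 1 member, Dtl (2.54, limma adjusted p = 0.00276). With array weights, which discount arrays that vary more, 38.3% of genes passed higher and 16.7% lower, and so did Dtl (2.62, adjusted p = 3.34e-04), Mcm7 (-3.72, adjusted p = 0.00586) and Pcna (-1.78, adjusted p = 0.00346). In the 5 brighter arrays 1.29% of genes passed higher and 2.99% lower, and 4 members passed on the higher side: Dtl (1.95, adjusted p = 0.0274), Mcm7 (1.40, 0.0254), Mcm6 (0.92, 0.041) and Mcm5 (1.26, 0.0496). Those 4 calls rest on RORasg/sg 1 alone, and Mcm7 passed in opposite directions under these alternatives. Over 25 alternatives the Dtl difference lay between 1.68 and 2.98, above the median gene in each, with adjusted p from 3.34e-04 to 1.

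Around the licensing step, 114 of 117 genes in 12 lists were tested, and 76 had higher and 38 lower means in RORasg/sg hearts, with a median difference of 0.39 and 0 past the adjusted threshold. Over all genes 66.6% had higher means and the median difference was 0.41, so neither value set the lists apart from the array-wide shift. An unadjusted limma p under 0.05 was reached by 16 on the higher side (14%, against 4.94% of all genes) and by 9 on the lower (7.89%, against 6.62%). From each list the gene with the smallest p is named, and up to 2 more where p was under 0.05, except that 3 are named among the CRL4-Cdt2 substrates whatever their p. In the origin recognition complex, which precedes the MCM ring at origins, 4 of 5 genes were higher with a median of 0.38 and none under 0.05. Orc3 came first with a difference of 0.70 (SE 0.589). Helicase loading and activation (Cdc45, the GINS subunits, geminin and others) had 10 of 14 higher, a median of 0.48 and none under 0.05. Gins3, a GINS subunit, was lowest at -1.62 (SE 0.760). Both turned in the 5 brighter arrays, where Orc3 differed by -1.26 and Gins3 by 1.42.

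Genes of the ligase around Cdt2 mostly had lower means in RORasg/sg hearts. Of 7 genes of the CRL4 core, which includes the cullins Cul4a and Cul4b and the adaptor Ddb1, 1 was higher and 6 lower, with a median of -0.50 and none under 0.05, and Dda1 came first at -1.08 (SE 0.636). Dda1 differed by 0.43 within slide 1 and by 0.20 with the mean of its probes. The core genes deviated from the WT mean by a median of -0.165, 0.223, -0.7 and -0.901 in RORasg/sg hearts 1 to 4. WT hearts spanned -0.294 to 0.212, so only RORasg/sg 3 and 4 lay below them. Among 10 other substrate receptors that dock on the same adaptor, 4 were higher and 6 lower, all 6 of them with an unadjusted p under 0.05, and the median was -1.49. Over all genes 6.62% were lower with an unadjusted limma p under 0.05, and the median was 0.41. The smallest p was that of Dcaf5, which differed by -4.19 (SE 0.937, limma adjusted p = 0.348), and next came Dcaf10 at -1.71 (SE 0.576) and Dcaf6 at -1.91 (SE 0.678). The list deviated from the WT mean by a median of -0.0924, -1.42, -1.78 and -2.58 in RORasg/sg hearts 1 to 4, so RORasg/sg 1 did not share it, and in the 5 brighter arrays Dcaf5 differed by -0.67, Dcaf10 by 0.10 and Dcaf6 by 0.08. Other CRL4-Cdt2 substrates, whose proteins Cdt2 marks for destruction, had 3 of 4 higher with a median of 0.36 and none under 0.05: Tdg, a DNA glycosylase, 0.63 (SE 0.505), Cdkn1a, which encodes the inhibitor p21, 0.41 (SE 0.521), and Kmt5a, which encodes the histone H4 methyltransferase Set8, 0.31 (SE 0.491). Among 6 other turnover factors of Cdt1, Cdc6 and Dtl, 4 were higher, the median was 0.19 and none was under 0.05, and Usp37, a deubiquitinase, differed by 0.71 (SE 0.444).

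Genes of the fork were mixed. Among 16 PCNA loaders and partners, 12 were higher and 4 lower, 3 and 1 of them with p under 0.05, with a median of 0.46: Chaf1a, a histone chaperone subunit that binds PCNA, differed by 1.66 (SE 0.483) with every RORasg/sg heart above every WT heart, the clamp loader subunit Rfc5 by 1.28 (SE 0.494), and Chtf8 of the alternative loader by -1.94 (SE 0.702). Replicative polymerases and RPA had 7 higher and 7 lower of 14, with a median of 0.08 and 3 and 1 under 0.05. Pole, the catalytic subunit of polymerase epsilon, differed by 1.90 (SE 0.620) without overlap and the primase subunit Prim2 by 2.18 (SE 0.703), while Pole3, an accessory subunit of the same polymerase, differed by -2.62 (SE 0.835) and stood clear of background in 2 of the 4 RORasg/sg hearts. All 5 deoxynucleotide supply genes were higher, with a median of 0.98 and 1 under 0.05, the thymidylate synthase gene Tyms at 1.16 (SE 0.488). None of these passed the adjusted threshold, and in the 5 brighter arrays Chtf8 and Pole3 turned, to 0.68 and 0.17. The higher genes named here kept their sign over 25 alternatives, though not their size. Their lowest differences were 0.884 for Chaf1a, 0.174 for Rfc5, 0.509 for Pole, 0.259 for Prim2 and 0.0247 for Tyms. Of all genes, 66.6% had higher means, with a median of 0.41, and 1.12% lay above without overlap. With an unadjusted limma p under 0.05, 4.94% of all genes were higher and 6.62% lower.

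Regulators and later steps of the cell cycle were examined last. E2F and pocket protein genes had 8 higher and 5 lower of 13, a median of 0.48, and 2 and 1 under 0.05: the repressor E2f8 differed by 1.23 (SE 0.527), the activator E2f1 by 1.14 (SE 0.509) and the pocket protein gene Rbl2 by -2.05 (SE 0.719). Of 5 S phase cyclins and kinases, 3 were higher with a median of 0.58, and the cyclin A gene Ccna2 differed by 2.21 (SE 0.715). All 15 G2 and mitosis genes had higher means, 6 of them with p under 0.05, 3 without overlap, and a median of 1.03. Over all genes 66.6% had higher means, with a median of 0.41, and 1.12% lay above without overlap. An unadjusted limma p under 0.05 was reached by 4.94% of all genes on the higher side and 6.62% on the lower. Racgap1, which acts in cytokinesis, differed by 2.49 (SE 0.530, limma adjusted p = 0.342), the chromosome passenger kinase gene Aurkb by 2.38 (SE 0.915) and the spindle motor gene Kif11 by 1.64 (SE 0.562), the first and last without overlap. After subtracting each array's median gene, the list stood 1.95, 0.202, 0.491 and 0.216 above the WT mean (median over its genes) in RORasg/sg hearts 1 to 4, and between -0.243 and 0.204 in WT hearts. The excess over the median gene was thus largest in RORasg/sg 1, while RORasg/sg 2 lay within the WT range. Over 25 alternatives the differences spanned 1.05 to 3.92 for Racgap1, 1.01 to 2.28 for Kif11 and 1.4 to 3.3 for Ccna2. They spanned 0.516 to 2.05 for E2f8, 0.134 to 2.35 for E2f1 and -3.26 to -0.455 for Rbl2. Aurkb stood clear of background in 4 of the 5 WT hearts, and over 24 alternatives it spanned 0.176 to 3.97.

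**Figure D4:**
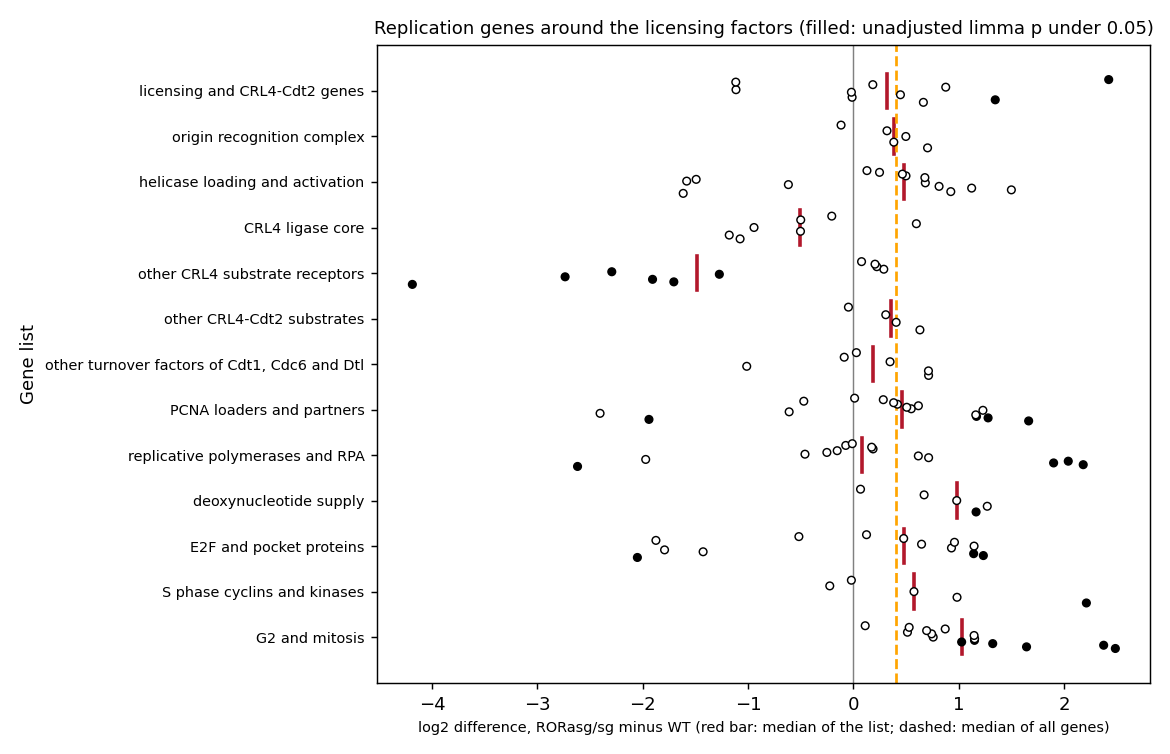
Log2 differences, RORasg/sg minus WT, of every tested gene in the licensing and CRL4-Cdt2 set and in 12 surrounding lists. Each circle is a gene, filled where the unadjusted limma p was under 0.05, the red bar is the list median and the dashed line the median of all genes (0.41). The other CRL4 substrate receptors lie furthest left with a median of -1.49, and the G2 and mitosis genes all lie right of 0.

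Of 27681 genes outside the set, those most like the members' mean profile over the 9 hearts were Pola2, a polymerase alpha subunit (Pearson r = 0.954), Aarsd1 (0.952), G6pdx (0.936) and 2 array entries known by accession or design name alone. The mean profile itself was 0.978 and 0.961 in RORasg/sg 1 and 2, and -0.483 and -0.639 in RORasg/sg 3 and 4, against -0.803 to 0.133 in WT hearts. RORasg/sg 1 and 2 thus lay above all WT hearts, and RORasg/sg 3 and 4 below all of them but WT 4. A mean weighs single genes such as Mcm7, which deviated from its WT mean by -5 and -3.75 in RORasg/sg 3 and 4. The members' median deviation was 0.148 and 0.124 in those hearts, within the range of -0.421 to 0.256 in WT hearts.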

How the data were processed

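Per the labels' protocols, 70 ng of total RNA per heart was amplified (NuGEN Ovation Pico WTA), and 5 ug of the product was labelled with Cy3. The scans of array design 014868 (grid build mm9) were quantified in Feature Extraction 12.0.0.7 under protocol GE1_1200_Jun14, per the file headers, and version 12 is also given in the submitters' processing notes. The deposited intensity is linear, has spot background subtracted by that software and carries no scaling across arrays. An identical intensity fills the deposited value table.

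Controls were removed (43379 of 45018 spots stayed) and 758 outlier-flagged spots over the 9 arrays left out, and no spot was saturated. Spots of a probe were averaged, and log2 values taken relative to each array's 75th percentile. The 36408 probes well above background on at least 4 arrays were kept, and each gene was represented by its brightest. RefSeq names (GRCm38.p6) were matched by accession (28223 probes with 19096 symbols). Groups were compared with limma 3.58.1 in R 4.3.3 (trended eBayes, Benjamini-Hochberg adjustment over 27778 genes, threshold 0.05; with data.table (version 1.17.8) and matplotlib 3.10.9), and the scripts were checked on simulated data. One array per mouse was used and the number of arrays limits precision. The members, lists, naming rule and alternatives were chosen with earlier results of these data known. The naming rule allowed up to 3 genes a list by smallest p, and which of them to print was narrowed after their values were seen. Alternatives were other scalings, normexp background correction (offset 50), probe filters and rules, slide and replicate blocks, array weights, brightness (covariate or subsets) and leaving out each array.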

Additional observations from a re-analysis of the deposited data

Results flagged for a closer look

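In 14 of 72 groups examined (36 probes or genes in each genotype), 1 heart stood apart from the others of its genotype by Dixon's ratio, which chance gives in about 1 of 20 groups. The ratio was taken on log2 values, and the values printed here are relative signal. Among the members, Mcm4 was low in RORasg/sg 3 (4.22, the others 9.43 to 10.9), and Mcm5 was high in RORasg/sg 1 (1.23, the others 0.64 to 0.69). Mcm2 was low in WT 4 (0.00582, the others 0.0799 to 0.221), and so was Mcm7 (1.2, the others 2.28 to 2.96).

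RORasg/sg 1 stood apart for 3 surrounding genes, with Orc3 at 1.18 (the others 7.36 to 8.53), Gins3 at 0.482 (0.0299 to 0.0428) and Dcaf5 at 8.79 (0.252 to 0.335). RORasg/sg 2 was high in Usp37, at 1.06 (0.375 to 0.425), and in Kif11, at 1.37 (0.218 to 0.273). RORasg/sg 4 was high in Tdg, at 10 (2.31 to 2.46), and low in Ccna2, at 0.0873 (0.697 to 0.96). WT 4 was low in Kmt5a, at 1.25 (2.46 to 3.2), in Rbl2, at 1.39 (4.29 to 5.46), and in Ccna2, at 0.0393 (0.108 to 0.149). The cause of these single-heart values was not tested.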

How the results depend on the processing

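Over 25 alternatives, 750 single-gene results kept their direction and side of the threshold, 44 kept their direction and came to pass it, and 51 changed sign, 3 of which also passed it (Mcm6, Mcm7 and Orc3 in the 5 brighter arrays). The count of genes called was 1, and became 2 with quantile normalization, 3 without scaling, 9 with the replicate block, 1189 in the 5 brighter arrays, 15288 with array weights, and 0 with probes above background on all arrays, with the mean of a gene's probes, with slide as a block, within either slide and in the 4 dimmer arrays. Leaving out single hearts gave 0 to 10402, the highest without RORasg/sg 1. Members called numbered 0, but 3 with array weights, 4 in the brighter arrays, and 0 to 1 without single hearts. Members with an unadjusted p under 0.05 numbered 2, but 1 without scaling and with the replicate block, 6 in the brighter arrays, 3 within each slide, in the dimmer arrays and with array weights, and 1 to 4 without single hearts. The members' median minus that of all genes was -0.0908, but 1.36 in the brighter arrays, 0.657 within slide 1, -0.601 within slide 2, 0.611 with brightness as a covariate, -0.796 with array weights and -0.59 to 0.293 without single hearts. Over the other alternatives it lay between -0.347 and -0.023. The median of all genes was 0.349 with median scaling, 0.303 with quantile normalization, 0.162 with normexp and -0.166 without scaling.

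Signs changed as follows, in log2 units of RORasg/sg minus WT. Without scaling they were -0.126 for Mcm5, -0.388 for Cdt1, -0.167 for Cdkn1a and -0.265 for Kmt5a. With the mean of probes they were -1.06 for Orc3, 0.198 for Dda1, -0.117 for Tdg and -0.497 for Kmt5a. Both the slide and the replicate block gave 0.0952 for Mcm4 and 0.0447 for Mcm6, and the block on replicate number called 0 members. Deviations of same-numbered RORasg/sg and WT hearts 1 to 4 correlated at 0.0463, -0.00689, -0.331 and 0.392, RORasg/sg 4 alone correlated best with its own number, and the numbers were therefore not taken as pairs. Within slide 1 they were 0.131 for Mcm4, 0.808 for Mcm6, 1.92 for Mcm7, 0.111 for Pcna and 0.429 for Dda1. Within slide 2 they were 0.0592 for Mcm4, -0.622 for Cdt1 and -0.402 for Cdkn1a. Array weights gave -0.409 for Mcm2, -0.0708 for Cdt1, -0.111 for Cdkn1a and -0.469 for Kmt5a. Brightness as a covariate gave 0.166 for Mcm4, 0.587 for Mcm6 and -0.298 for Orc3. The brighter arrays gave 0.224 for Mcm4, 0.923 for Mcm6, 1.40 for Mcm7, 0.16 for Pcna, -1.26 for Orc3, 1.42 for Gins3, 0.101 for Dcaf10, 0.0763 for Dcaf6, 0.679 for Chtf8 and 0.165 for Pole3. The dimmer arrays gave 0.636 for Mcm4, -0.336 for Mcm5 and -0.848 for Cdt1. Without single hearts, the ranges that cross 0 were -0.276 to 1.04 for Mcm2, -0.211 to 0.296 for Mcm4, -0.348 to 0.633 for Mcm6, -2.38 to 0.18 for Mcm7 and -0.0499 to 0.418 for Cdt1. The cause of these changes was not tested. Tests in the brighter or dimmer arrays have 1 heart in a group and take its spread from the other group.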
